A study of Homo sapiens with 8 samples.

Results

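MDA-MB-231 is an established human line of triple-negative breast cancer cells, which lack the estrogen and progesterone receptors. Here these cells are described after transfection with siE1, an siRNA (small interfering RNA) against ESRRA, set against the same cells given the control siRNA siC. The members were the 2 libraries named siE1 and the 2 named siC in the sample titles, 4 of the 8 in the series. The other 4 libraries came from 2 further siRNAs against ESRRA, siE2 and siE3. They entered the model that estimates the spread, and they show where siE1 stood apart. All cells were grown in DMEM with fetal calf serum and transfected with INTERFERin, but neither the time after transfection nor the siRNA sequences are given in the sources. Nothing in the labels says that libraries of a group came from separate cultures. The p-values therefore measure only how far these libraries differ, which may reflect technique alone.

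ESRRA encodes ERRα (estrogen-related receptor α), an orphan nuclear receptor that binds DNA without a known natural hormone. It works with coactivators of the PGC-1 family, and it is best known for switching on genes of mitochondrial respiration and energy use. In breast tumors a high level has been linked with poor outcome. An siRNA is loaded into an Argonaute protein, pairs with its target message and directs its cleavage. Studies often use several siRNAs of different sequence against the same message, because each can also act on messages other than its target.

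RNA-seq reads had been counted per gene. Totals were 22305207 and 25880548 counts in the siE1 libraries and 22047738 and 23624089 in the siC libraries, and 21835995 to 23586024 in the siE2 and siE3 libraries. The chi-square of counts per degree of freedom was 3.20 between the siE1 libraries, 3.5 between the siC libraries and 48.6 to 56.8 between a siE1 and a siC library. Levels below are CPM (counts scaled to library size, with TMM factors that correct for differences in composition) and compare libraries, not genes of unequal length. Vimentin (VIM), the intermediate filament of mesenchymal cells, was abundant, at 3709 and 3585 CPM under siE1 and 3592 and 3620.2 CPM under siC, as the mesenchymal-like type of this line has it. The hormone receptor genes ESR1 and PGR had at most 1 count in any siE1 or siC library. In bulk RNA, fewer cells of a kind and less message per cell cannot be told apart.

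The target itself checks the labels. ESRRA had 228 and 271 counts in the siE1 libraries, against 1379 and 1512 in the siC libraries. In scaled levels this was 10.3 and 10.5 CPM under siE1 and 62.9 and 64.8 CPM under siC, so 16.3% of the control level remained. The log2 fold change was -2.62 (SE 0.0857, edgeR adjusted p = 7.2e-12). The groups were far apart and the siE1 libraries nearly equal. Its relatives ESRRB and ESRRG, at 0 to 2 counts in each siE1 and siC library, were not tested. The siRNA siE1 left more of the message than the other siRNAs did, by 0.37 against siE2 and by 0.30 against siE3 on the log2 scale (edgeR adjusted p = 0.0092 and 0.031).

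Of 13395 genes tested, 6744 (50.3%) passed an edgeR adjusted p below 0.05 for siE1 against siC, 3287 higher (24.5%) and 3457 lower (25.8%). Most of these changes were small, with a median size of 0.40 on the log2 scale. At least 1.5-fold, 1101 genes were higher (8.22%) and 873 lower (6.52%). A change of at least 2-fold was met by 474 higher genes (3.54%) and 237 lower genes (1.77%), and one of at least 4-fold by 61 higher (0.455%) and 14 lower (0.105%). Higher and lower calls were thus similar in number, while among changes of at least 2-fold higher genes outnumbered lower ones. This balance went with level. Below 1 CPM 146 genes were called higher and 58 lower, with a median size of 1.37. From 1 to 5 CPM these counts were 380 and 219 (median size 0.84), and from 5 to 20 CPM 604 and 582 (0.51). From 20 to 100 CPM 1319 were higher and 1679 lower, and at 100 CPM or more 838 and 919. The median over all tested genes was -0.01, and 5% of genes lay below -0.72 and 5% above 0.89. Depth set how small a change could be called. Among genes below 1 CPM, 17.1% were called with a median SE of 0.428, and among genes of 100 CPM or more, 63.5% were called with a median SE of 0.0479. In 74.7% of tested genes both siE1 libraries lay beyond both siC libraries. The authors' deposited table gave 5288 genes an adjusted p below 0.05 for siE1, 2614 higher and 2674 lower, and 5274 of the 5281 tested here were also called with the same sign. Leaving out a siE1 or a siC library gave 5295 to 5690 called genes.

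**Figure D1:**
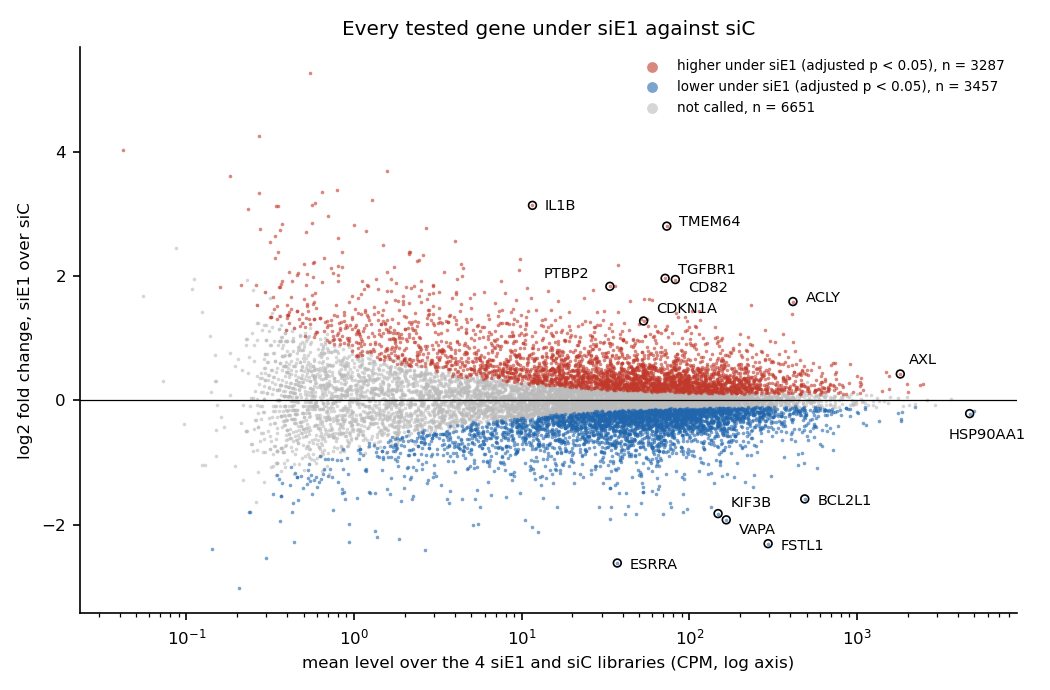
Each point is a tested gene, with its mean level over the 4 siE1 and siC libraries (CPM, log axis) on the x axis and its log2 fold change of siE1 over siC on the y axis. Red points were higher (3287) and blue points lower (3457) at an edgeR adjusted p below 0.05. ESRRA lies at -2.62, FSTL1 at -2.31, IL1B at 3.14 and TMEM64 at 2.81.

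The 14 genes with the highest fold changes, taken among called genes of at least 5 CPM whose libraries did not overlap, were led by secreted signals, membrane proteins and a receptor. IL1B, the inflammatory cytokine interleukin 1β, stood at 25.9 and 15.7 CPM in the siE1 libraries, against 1.73 and 2.91 CPM in the siC libraries. Its log2 fold change was 3.14 (SE 0.295, edgeR adjusted p = 4.5e-07). In relation to their level, libraries of the same group differed more from each other here than for any other of these 14 genes, and the lower siE1 value was still several times the higher siC value. IL11, a cytokine of the interleukin 6 family, stood at 62.7 and 50.3 CPM under siE1 and 12.96 and 18.3 CPM under siC (1.84). TGFBR1, the type I receptor for TGF-β, stood at 116 and 113 CPM under siE1 and 27.3 and 30.9 CPM under siC (1.97, SE 0.0708). CD82, a tetraspanin first described as a suppressor of metastasis, stood at 135 and 127 CPM under siE1 and 31.04 and 36.7 CPM under siC (1.95).

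The membrane protein genes TMEM64 and TMEM65 were among the steepest of these rises. TMEM64 had 131 and 125 CPM under siE1 and 18.4 and 18.2 CPM under siC (2.81, SE 0.0728). TMEM65 had 61.04 and 61.9 CPM under siE1 and 14.01 and 13.2 CPM under siC (2.18, SE 0.0731). Within each group the libraries were nearly equal, and the groups lay far apart. PLSCR4, a phospholipid scramblase, rose by 2.11, FBLN1, the matrix protein fibulin 1, by 1.81, and DMPK, the kinase gene altered in myotonic dystrophy, by 1.78. PTBP2, the splicing repressor best known from developing neurons, had 55.1 and 49.7 CPM under siE1 and 14.3 and 14.95 CPM under siC (1.84, SE 0.0806). The other 4 of the 14 were APCDD1L (2.28), STYK1 (1.93), EFR3B (1.76) and TMEM40 (1.74). All 14 passed with an edgeR adjusted p of 4.5e-07 or less.

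At the other end, after ESRRA, stood FSTL1, a secreted glycoprotein of the follistatin-like group. It had 97.5 and 100.2 CPM in the siE1 libraries, against 498 and 482 CPM in the siC libraries, and its log2 fold change was -2.31 (SE 0.0442, edgeR adjusted p = 3.3e-14). This was the smallest adjusted p of the genes named for their fold change, and no siE1 library came near a siC library. AIDA, an axin-binding protein, had 4.47 and 4.86 CPM under siE1 and 20.2 and 20.6 CPM under siC (-2.12). TFB1M, which methylates the mitochondrial ribosomal RNA, had 4.38 and 4.63 CPM under siE1 and 17.7 and 19.3 CPM under siC (-2.03). VAPA, the endoplasmic reticulum anchor for lipid-transfer proteins, had 70.98 and 67.3 CPM under siE1 and 254 and 270.2 CPM under siC (-1.92). The libraries of each group were close for all of these.

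Motor and membrane genes followed. KIF3B, a motor subunit of kinesin-2, had 66.01 and 64.5 CPM under siE1 and 235 and 227 CPM under siC (-1.82, SE 0.0502). DYNC1LI2, a light intermediate chain of cytoplasmic dynein, had 43.01 and 39.1 CPM under siE1 and 144 and 140.4 CPM under siC (-1.79, SE 0.0549). Kinesin-2 and dynein carry cargo in opposite directions along microtubules. PRELID1, which carries phosphatidic acid across the mitochondrial intermembrane space, fell by 1.83, SSU72, a phosphatase of the RNA polymerase II tail, by 1.84, and MICB, a stress-induced ligand of the killer cell receptor NKG2D, by 1.83. The remaining 4 were FAM117A (-2.01), ACPL2 (-1.99), MGC12916 (-1.93) and the histone gene HIST1H2BK (-1.91). For all 14 the edgeR adjusted p was 1.3e-07 or less.

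**Figure D2:**
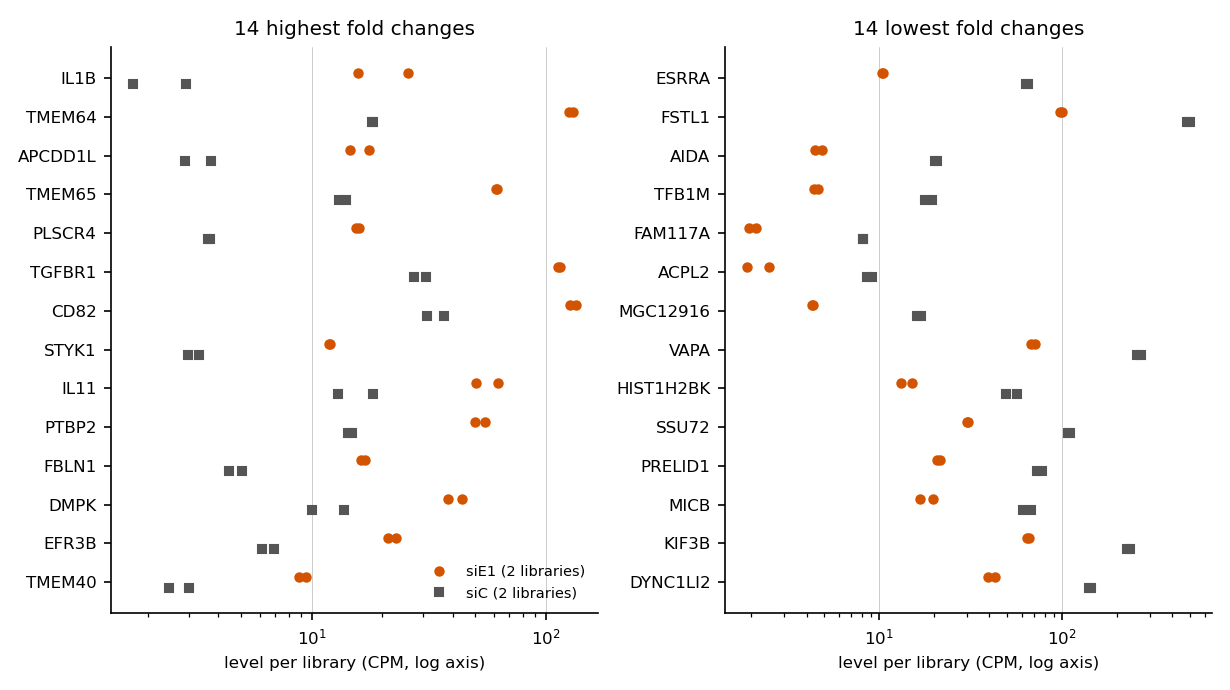
The x axis gives the level per library (CPM, log axis) of the 14 genes with the highest (left) and the 14 with the lowest (right) fold changes, with siE1 as orange circles above siC as grey squares, 2 libraries each. The genes were chosen so that no siE1 library overlaps a siC library, which held for 74.7% of all tested genes. On the log axis the libraries of IL1B lie furthest apart within a group (25.9 and 15.7 CPM under siE1, 1.73 and 2.91 CPM under siC).

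By absolute gain in CPM, the largest rises were in genes of high level. AXL, a receptor tyrosine kinase typical of mesenchymal breast cancer lines, had 1988 and 2159 CPM under siE1 and 1596 and 1491 CPM under siC (0.43). TMSB10, an actin-sequestering thymosin, rose by 0.45, ACTG1, cytoplasmic γ-actin, by 0.26, YWHAZ, a 14-3-3 adaptor, by 0.39, and PKM2, the glycolytic pyruvate kinase, by 0.25. ACLY, which makes cytosolic acetyl-CoA from citrate, combined a high level with a steep rise, with 625 and 619 CPM under siE1 and 199 and 214 CPM under siC (1.59). The largest absolute losses were in ACTB, β-actin (-0.17), PABPC1, the poly(A)-binding protein (-0.34), FSTL1, and the chaperones HSPA9 (-1.09) and HSP90AA1 (-0.21). HSP90AA1 was not called without siE1 replicate 1 (-0.17, edgeR adjusted p = 0.072). BCL2L1, which encodes the survival protein BCL-xL, had 241 and 245 CPM under siE1 and 735 and 727 CPM under siC (-1.59, SE 0.0429). A search for genes with at most 3 counts in each library of a group and at least 30 in each of the other found F13A1 alone, the A chain of clotting factor XIII, with 39 and 30 counts under siE1 against 3 and 3 under siC. Under siE2 it had 39 and 33 counts and under siE3 13 and 8.

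The direct comparison of siE1 with the other siRNAs against ESRRA sets means side by side that do not include the siC libraries. The siC libraries enter it only through the shared filter, scaling and spread. Against siE2, 7654 genes differed (57.1%), 3819 higher and 3835 lower under siE1, and against siE3 6529 differed (48.7%), 3124 higher and 3405 lower. Genes that differed from siC, siE2 and siE3 alike, and in the same direction, numbered 1073 higher (8.01%) and 1452 lower (10.8%). The fold changes over siC that follow for siE2 and siE3 share the siC libraries with those of siE1, so they are set side by side and no agreement is drawn from them.

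Of the genes set highest apart, CDKN1A encodes p21, an inhibitor of cyclin-dependent kinases that halts the cell cycle. It had 77.3 and 73.6 CPM under siE1 and 29.3 and 32.8 CPM under siC. The log2 fold change of siE1 over siC was 1.28 (SE 0.0694, edgeR adjusted p = 1.2e-09). Over siC it stood at -0.73 under siE2 and -0.35 under siE3, and the direct differences were 2.01 against siE2 and 1.63 against siE3 (edgeR adjusted p = 2.0e-11 and 1.6e-10). BTG2, an antiproliferative gene, was at 0.45 with siE1, -1.30 with siE2 and -0.97 with siE3. The siE1 rise of BTG2 was small, at 9.67 and 10.7 CPM against 7.94 and 7.03 CPM under siC, and it was not called without siC replicate 2 (0.36, edgeR adjusted p = 0.081) or without siE1 replicate 2 (0.37, edgeR adjusted p = 0.081), nor by DESeq2 (adjusted p = 0.056). CTXN1 was at 1.14 with siE1, -0.29 with siE2 and -0.50 with siE3. These 3 genes moved in opposite directions, siE1 up and the others down, each passing the test.

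PTBP2, TMEM40 and EFR3B, already named among the steepest rises, also belonged here. PTBP2 was at 1.84 with siE1, -0.32 with siE2 and 0.13 with siE3, and its direct differences were 2.16 and 1.71. Its close relative PTBP1, which holds PTBP2 in check in many non-neuronal cells, had 339 and 319 CPM under siE1 and 501 and 538 CPM under siC (-0.66), and was at -0.19 under siE2 and -0.06 under siE3. EGLN3, an oxygen-sensing prolyl hydroxylase, had 9.17 and 9.03 CPM under siE1 and 3.88 and 3.17 CPM under siC, and its log2 fold changes were 1.37 with siE1, -0.27 with siE2 and -0.08 with siE3. The remaining genes of this group were APCDD1L, DOK3 (1.43) and C8orf73 (1.10).

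The genes set lowest apart were led by FSTL1, at -2.31 with siE1, -0.08 with siE2 and 0.16 with siE3. Its direct differences were -2.23 against siE2 and -2.47 against siE3 (edgeR adjusted p = 5.4e-14 and 1.3e-14). VAPA was at -1.92, -0.07 and -0.17 under siE1, siE2 and siE3, TFB1M at -2.03, 0.02 and -0.03, and PRELID1 at -1.83, -0.14 and -0.01. Of the siE2 and siE3 values of these genes, FSTL1 (higher) and VAPA (lower) under siE3 and PRELID1 (lower) under siE2 passed the test. PNPLA6, a lysophospholipase of the endoplasmic reticulum known as neuropathy target esterase, had 33.7 and 36.4 CPM under siE1 and 94.4 and 94.1 CPM under siC (-1.42). PAQR8, a membrane progestin receptor, was at -0.76 with siE1, 1.14 with siE2 and 0.90 with siE3. AIDA, FAM117A, FAM84B (-1.57) and CCDC15 (-1.72) completed the group. Not every large change under siE1 stood apart in this way: KIF3B was at -0.15 under siE2 and -1.75 under siE3, and TMEM65 at 2.12 and 1.93.

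**Figure D3:**
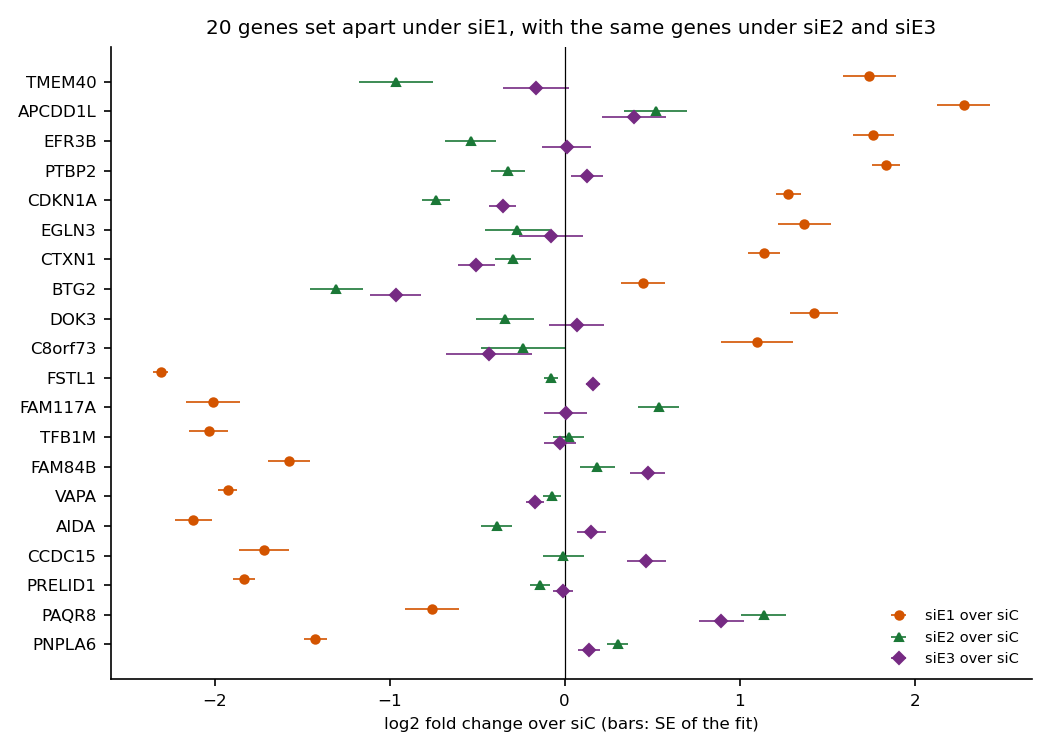
The x axis gives log2 fold changes over siC with their SE for 20 genes that differed under siE1 from siC, siE2 and siE3 alike, ordered from the highest-set to the lowest-set group. Orange circles are siE1, green triangles siE2 and purple diamonds siE3. PTBP2 lies at 1.84 under siE1 with the other siRNAs at -0.32 and 0.13, and FSTL1 at -2.31 with the others at -0.08 and 0.16.

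The 3' UTR (the untranslated end of a message, where microRNAs and many RNA-binding proteins attach) was then searched for short words that went with the fold change. The 15748 words of 7 bases found in the 3' UTRs of at least 100 genes were ranked by a difference of means under siE1. This was the mean log2 fold change of genes with the word minus that of genes without it, over its error. The error came from the spread over all searched genes and the numbers of genes with and without the word. GACCAGA ranked lowest, followed by the overlapping words TGACCAG and ATGACCA. Only the transcript strand was searched. The word was picked after the fold changes were seen, so its values are a description without a test. It occurred in 1163 of the 12270 genes with a matched 3' UTR (9.48%). These genes had a median log2 fold change of -0.13 under siE1, against 0.01 for the 11107 genes without the word, and medians of 0.03 under siE2 and 0.00 under siE3.

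The sites in the lowest genes show the word and its surroundings. They are given 5′ to 3′ with GACCAGA in capitals, from GENCODE v29 on GRCh38, a later build than the hg19 used for the counts.
FSTL1, chr3:120395604-120395633, minus strand: caaaaacaagatGACCAGAtttgatctcag
AIDA, chr1:222669232-222669261, minus strand: ttgtttccagatGACCAGAttgtttttctg
TFB1M, chr6:155257713-155257742, minus strand: acaaatgccaatGACCAGAtgtgacttatt
ACPL2 (PXYLP1 in GENCODE), chr3:141293804-141293833, plus strand: aaaacagatggtGACCAGAtttggcccctg
VAPA, chr18:9954243-9954272, plus strand: tttttttctcttGACCAGAaaaagatttgt
DYNC1LI2, chr16:66723270-66723299, minus strand: ccaggaaagaaaGACCAGAaggagtaatga
ESRRA, coding sequence, chr11:64315012-64315041, plus strand: ctgtcgctgtctGACCAGAtgtcagtactg
The first 5 of these 3' UTR sites, and the site in ESRRA, match the 8-base word TGACCAGA, while the site in DYNC1LI2 matches the 7 bases. ESRRA carries the word in its coding part, starting at base 1000 of the 2283 bases of the transcript used, ahead of a 3' UTR that starts at base 1507.

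Of the 14 lowest genes, 13 had a matched transcript (that of HIST1H2BK has no 3' UTR), and 6 held the word in the 3' UTR, 5 of them as the 8-base word. Of the 14 highest genes, 2 held it, PTBP2 and EFR3B. Of the genes set apart from siC, siE2 and siE3, 3 of the 10 highest held it, PTBP2, EFR3B and EGLN3. In 2 of these it was the 8-base word. Of the 10 lowest, 4 held it, all 4 as the 8-base word. DYNC1LI2, at -1.33 under siE2 and 0.49 under siE3, and ACPL2, at -0.95 and 0.14, were not lower under siE1 alone. Among lower genes of at least 2-fold the share was 36.0% (73 of 203), among all lower genes 14.5% and among higher genes 6.94%. By size of change, 41.5% of the genes below -1.5 held the word, 31.2% of those between -1.5 and -1 and 19.5% of those between -1 and -0.5. Above 0 the share lay between 6.71% and 7.72%. The genes lower under siE1 than under siC, siE2 and siE3 held it in 20.9% of cases, and those higher than all 3 in 6.15%.

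Of the genes with the word, 40.7% were called lower and 18.9% higher under siE1, against 25.02% lower and 26.6% higher of those without it. The first of these shares was 34.7% to 36.0% when a siE1 or siC library was left out, and 35.9% by DESeq2. Under each of these settings fewer genes were also called lower over all 13395 or so tested genes, with 2854 by DESeq2 against 3457 in the main fit. The 376 genes with the 8-base word had a median of -0.22, and 48.9% of them were called lower. Genes with the word had longer 3' UTRs, with a median of 2905 bases against 1014 bases without it. Within 3' UTRs shorter than 1000 bases the medians were -0.20 with the word and -0.01 without it, from 1000 to 2500 bases -0.17 and 0.01, and above 2500 bases -0.09 and 0.03. The part that these sites play in the fold changes was not tested.

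**Figure D4:**
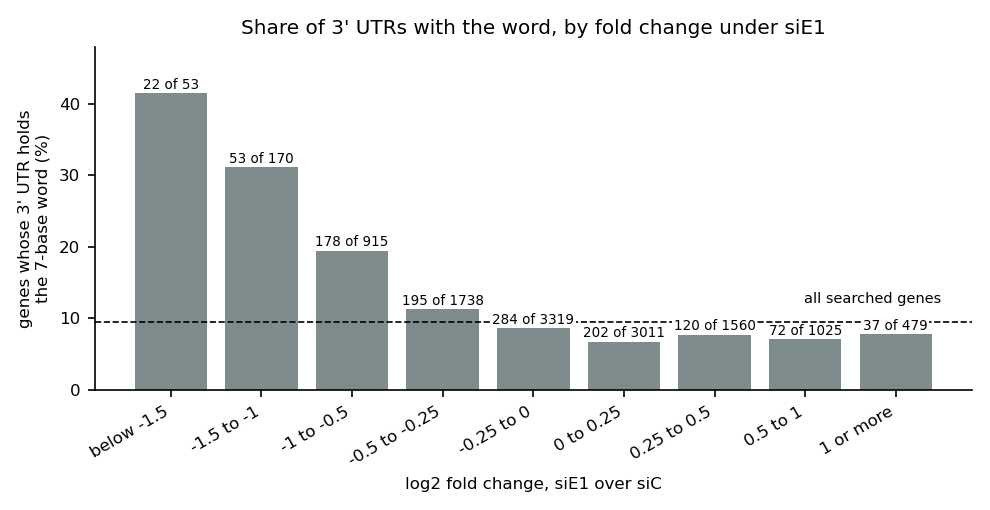
Bars give the percentage of genes in each bin of log2 fold change (siE1 over siC) whose 3' UTR holds the 7-base word, with the number of genes above each bar and the share of all 12270 searched genes (9.48%) as a dashed line. The share falls from 41.5% below -1.5 to between 6.71% and 7.72% above 0.

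Classes of genes outside central metabolism were then described by how many tested members were called, beside 24.5% higher and 25.8% lower over all tested genes. Leaving out a siE1 or siC library leaves 1 library in its group, and fewer genes were then called over all tested genes too. Class counts given without such a library are to be read beside that loss. Inflammatory signals rose more often than they fell. Of 63 tested cytokine, chemokine and NF-κB genes, 35 rose and 4 fell, with a median of 0.40. Besides IL1B and IL11 these included the receptor chain shared by interleukin 6 and its relatives, IL6ST, at 307 and 307 CPM under siE1 and 165 and 166 CPM under siC (0.89), and the leukemia inhibitory factor receptor LIFR (0.91). Under siE2 23 rose and 9 fell (27.9% and 28.5% of all tested genes), and under siE3 22 rose and 9 fell (21.3% and 20.8%). Directly compared, 25 were higher and 13 lower under siE1 than under siE2 (28.5% and 28.6% of all tested genes), and 26 higher and 11 lower than under siE3 (23.3% and 25.4%).

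Growth factor ligands and their binding proteins rose in 18 of 37 and fell in 5 (median 0.38). FGF5, a fibroblast growth factor, had 85.1 and 94.6 CPM under siE1 and 29.8 and 28.8 CPM under siC (1.62). The insulin-like growth factor binding proteins went opposite ways, IGFBP4 up (1.07) and IGFBP3 down, with 81.6 and 78.5 CPM of IGFBP3 under siE1 and 197 and 204 CPM under siC (-1.33). IGFBP3 was at 0.81 under siE2 and -0.64 under siE3. CTGF, a matricellular target of YAP, fell by 0.70. Receptor tyrosine kinases rose in 11 of 25 and fell in 3 (median 0.29), with the collagen receptor DDR1 at 1.42 and TIE1 at -0.69.

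In the TGF-β, activin and BMP pathway 25 of 50 genes rose and 3 fell (median 0.19), with 5 lower genes when no filter on low counts was applied. The risers included TGFBR1, the signal transducer SMAD5 (0.92) and the BMP antagonist NOG (0.83), while FSTL1 was the deepest decrease. The NOTCH and Hedgehog list rose in 15 of 44 and fell in 4, with NOTCH3 at 1.23, NUMBL at 0.57 and its relative NUMB, which antagonizes NOTCH, at -0.54. The WNT list was close to the share over all genes, with 9 higher and 10 lower of 46. Its members at the lower end were the receptor FZD5 (-1.23) and the transcription factor TCF7L2 (-0.94).

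Genes of the cell surface and matrix rose more often than they fell. Metalloproteinases, their tissue inhibitors and genes of plasminogen activation rose in 22 of 42 and fell in 6 (median 0.42). TIMP2 had 427 and 432 CPM under siE1 and 261 and 250.3 CPM under siC (0.75), and the membrane collagenase MMP14 was at 0.67. Collagens, laminins and matrix glycoproteins rose in 34 of 65 and fell in 6 (median 0.25). COL5A1 had 64.5 and 68.1 CPM under siE1 and 22.8 and 20.8 CPM under siC (1.61), and LTBP2, which binds microfibrils, was at 1.18. COL8A1 went the other way, with 18.9 and 18.1 CPM under siE1 and 49.1 and 49.02 CPM under siC (-1.41).

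Directly compared, 5 of the 42 metalloproteinase and inhibitor genes were higher and 22 lower under siE1 than under siE2. Of the 65 matrix genes 10 were higher and 36 lower under siE1 than under siE2. Against siE3 the counts were 16 higher and 10 lower of the metalloproteinase list and 21 higher and 17 lower of the matrix list. Over all tested genes the shares were 28.5% higher and 28.6% lower against siE2, and 23.3% and 25.4% against siE3. The lower counts against siE3 were thus near the share over all genes. Enzymes of heparan and chondroitin sulfate rose in 24 of 48 and fell in 10 (median 0.32), among them the proteoglycan CSPG4 (1.72) and the dermatan sulfotransferase CHST14 (0.98). CD44, the hyaluronan receptor and the most abundant gene of that list, fell by 0.24.

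Integrins and focal adhesion genes rose in 21 of 43 and fell in 7 (median 0.28). The kinase SRC had 68.3 and 71.6 CPM under siE1 and 29.8 and 29.7 CPM under siC (1.23), and was at 0.18 under siE2 and 0.41 under siE3. Integrin αV (ITGAV) rose by 1.0 and caveolin 2 (CAV2) by 1.11, while FERMT2, the integrin activator kindlin 2, fell by 0.68. Tetraspanins rose in 11 of 22 and fell in 3 (median 0.27), and without siE1 replicate 1 the lower count was 1. TSPAN14, which escorts the protease ADAM10, was at 0.63 with siE1, -0.09 with siE2 and 0.05 with siE3. Ephrins, semaphorins and their receptors rose in 23 of 49 and fell in 5, led by SEMA4B (1.3), ROBO4 (1.15) and SEMA7A (0.97). That higher count was 11 without siC replicate 2 and 13 without siE1 replicate 2. Of 46 listed keratin, claudin and epithelial genes 25 were tested, 13 of them at a mean below 5 CPM. The epithelial markers CDH1 and KRT19 had at most 2 counts in any siE1 or siC library. Of the 25 tested genes 9 rose and 0 fell (median 0.26), with CLDN4 at 1.18 and KRT8 at 0.41. The lower count was 1 without siC replicate 1 or without siE1 replicate 2 in edgeR, at an unadjusted p below 0.05 it was also 1, and by DESeq2 and limma-voom it was 0.

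Among channels, 21 of 38 calcium channel, pump and exchanger genes rose and 3 fell (median 0.29). ITPR3, the type 3 inositol trisphosphate receptor that releases calcium from the endoplasmic reticulum, had 379 and 385 CPM under siE1 and 251 and 249 CPM under siC (0.61). ORAI2, a subunit of store-operated calcium channels, rose by 0.74, and CACNA2D1, an auxiliary subunit of voltage-gated channels, by 1.72. Potassium channels were mostly low, with 5 higher and 2 lower of 23. KCNN4, the intermediate-conductance calcium-activated channel, had 51.7 and 56.2 CPM under siE1 and 24.8 and 24.8 CPM under siC (1.12).

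Stress and survival genes moved in several directions. HMOX1, the heme-degrading enzyme of the NRF2 response, had 93.2 and 81.4 CPM under siE1 and 27.02 and 29.2 CPM under siC (1.63, SE 0.0740). It was at 0.20 under siE2 and 0.58 under siE3. In its list of metallothionein, NRF2 and iron genes 22 of 46 rose and 12 fell, and without siE1 replicate 2 the lower count was 7. NQO1 (0.60) and the ferritin chain FTH1 (0.67) rose as well. Hypoxia response genes rose in 19 of 38 and fell in 4 (median 0.25), with NDRG1 at 1.06 and the glucose transporter SLC2A3 at 1.0. BNIP3L, a mitophagy receptor of the same list, had 44.01 and 39.8 CPM under siE1 and 85.4 and 85.8 CPM under siC (-1.03), and was at 0.85 under siE2.

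MDA-MB-231 cells carry a mutant p53. In the p53-linked list 16 of 39 genes rose and 6 fell (median 0.13), and without siE1 replicate 2 the lower count was 3. PMAIP1, which encodes the death-promoting protein NOXA, had 138 and 129 CPM under siE1 and 58.3 and 62.7 CPM under siC (1.14), and PHLDA3 rose by 1.3. Beside the fall of BCL2L1, the BCL2, caspase and death receptor list held 18 higher and 10 lower genes of 53, with the death promoter BAD at 0.54 and the death receptor TNFRSF21 at -0.73. BCL2L1 was at -0.51 under siE2 and -0.49 under siE3, and the direct differences were -1.08 against siE2 and -1.10 against siE3 (edgeR adjusted p = 3.7e-11 and 5.0e-11). AP-1 and immediate early genes rose in 10 of 24 and fell in 2, or 4 without siC replicate 1. JUND was at 0.77 and IER3 at 1.01. Directly compared, 9 of these 24 were higher and 1 lower under siE1 than under siE2, and 14 higher and 2 lower than under siE3. Over all tested genes the shares were 28.5% higher and 28.6% lower against siE2, and 23.3% and 25.4% against siE3.

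Interferon-stimulated genes and RNA sensors rose in 24 of 57 and fell in 5 (median 0.25), and without siC replicate 1 or without siE1 replicate 1 the lower count was 3. IFIT1, which binds foreign RNA ends, had 41.3 and 33.3 CPM under siE1 and 15.1 and 17.5 CPM under siC (1.19), and ISG15 rose by 0.68. Of 28 antigen presentation genes 10 rose and 2 fell, or 6 rose without siC replicate 1. B2M, the light chain of class I molecules, rose by 0.32, while MICB, named above, and CD276 (-0.60) fell. Of 31 complement and coagulation genes 12 rose and 4 fell, with tissue factor (F3) at 401 and 376 CPM under siE1 and 168 and 185 CPM under siC (1.14).

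Genes that handle chromatin, RNA and DNA fell more often than they rose. Only 12 of 64 listed replication-dependent histone genes passed the filter on low counts, and 7 of these fell and 0 rose in edgeR (median -0.83). None rose at an unadjusted p below 0.05 either, or by DESeq2 or limma-voom. HIST1H2BK had 15.2 and 13.1 CPM under siE1 and 49.5 and 56.3 CPM under siC, and HIST1H1C had 11.3 and 12 CPM under siE1 and 28.98 and 29.95 CPM under siC (-1.34). Histone genes are near-identical copies, so their counts may be split between them. Of 40 remodeler genes of the SWI/SNF, CHD and INO80 kinds 5 rose and 13 fell, or 2 rose without siC replicate 1 or without siE1 replicate 1. SMARCD1, a SWI/SNF subunit, had 81.6 and 78.5 CPM under siE1 and 159 and 162 CPM under siC (-1.0), the ATPase SMARCA4 fell by 0.67, and the histone deacetylase HDAC3 fell by 0.65. For SMARCD1 and HDAC3 the values under siE2 were 0.03 and -0.04, and under siE3 -0.25 and -0.04.

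Core spliceosome genes rose in 10 of 54 and fell in 24 (median -0.11), and the higher count was 6 without siC replicate 1 and 4 without siE1 replicate 1. SNRPG, an Sm protein, rose by 0.95, and SF3A3 fell by 0.46. SR proteins and hnRNPs rose in 7 of 45 and fell in 16, with 3 higher without siC replicate 1 or without either siE1 library. PTBP2 and PTBP1 were the members with the smallest p. Genes of mRNA decay rose in 9 of 54 and fell in 22. The lower count was 13 without siC replicate 2 or without siE1 replicate 2, where the higher count was 5 and 4. DCP1A, a decapping factor, had 31.4 and 31.03 CPM under siE1 and 72.8 and 69.8 CPM under siC (-1.19), while RC3H2, which encodes a second roquin, rose by 1.03. DROSHA, the nuclease that starts microRNA processing, had 105 and 116 CPM under siE1 and 201 and 195 CPM under siC (-0.84). Host genes of small nucleolar RNAs and other noncoding RNAs rose in 1 of 30 and fell in 12 (median -0.22), SNHG5 by 0.83.

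Genes of mitosis, DNA replication and DNA repair fell more often than they rose. Mitosis genes rose in 9 of 67 and fell in 32 (median -0.12), DNA replication genes rose in 10 of 60 and fell in 23 (median -0.10), and DNA repair genes rose in 12 of 77 and fell in 30 (median -0.13). These counts changed when single libraries were left out, as did the number of calls over all tested genes. The lower mitosis count was 17 without siC replicate 2 and 20 without siE1 replicate 2, and the higher one was 5 without siC replicate 1 or siE1 replicate 1. Without siE1 replicate 2, 13 replication genes were lower and 7 repair genes were higher. CDC20, the activator of the anaphase-promoting complex, had 122 and 113 CPM under siE1 and 199 and 210.4 CPM under siC (-0.81), and CDCA8, the chromosomal passenger borealin, had 91.99 and 78.1 CPM under siE1 and 162 and 183 CPM under siC (-1.02). CDC6, which loads the replicative helicase, fell by 0.58, TIMELESS by 0.64 and the DNA end-binding protein XRCC6 by 0.48, while CENPK (0.85) and RFC5 (0.68) rose. G1-S cyclin, CDK inhibitor and E2F genes rose in 13 of 56 and fell in 17 (median -0.04), shares near those of all genes. Among them LIN52, a subunit of the DREAM complex, had 7.86 and 7.22 CPM under siE1 and 24.1 and 25.5 CPM under siC (-1.72), and CDK6 rose by 0.84. Directly compared, 45 of the 67 mitosis genes were higher and 9 lower under siE1 than under siE2, and 14 higher and 29 lower than under siE3. Over all tested genes the shares were 28.5% higher and 28.6% lower against siE2, and 23.3% and 25.4% against siE3.

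The classes of membrane traffic, the cytoskeleton and protein turnover did not share a direction, and they held large single changes. Actin-binding and myosin genes (46.8% higher, 19.1% lower) and RAB GTPases (41.3% and 21.7%) rose more often than they fell. Cullin, F-box and BTB adaptors fell more often than they rose (30.6% lower, 19.4% higher). RAB GTPases rose in 19 of 46 and fell in 10 (median 0.20), with RAB18, a GTPase of lipid droplets and the endoplasmic reticulum, at 123 and 123 CPM under siE1 and 46.1 and 51.03 CPM under siC (1.34). SNARE genes rose in 22 of 56 and fell in 15, and VTI1B (-1.36) and STX18 (-1.19) were lower. VTI1B was at -0.15 under siE2 and 0.02 under siE3. Coat and Golgi tether genes rose in 23 of 80 and fell in 24, with KDELR3, a receptor that returns proteins to the endoplasmic reticulum, at 12.3 and 15.1 CPM under siE1 and 32.4 and 32.3 CPM under siC (-1.23). Endosomal sorting and clathrin genes rose in 23 of 72 and fell in 21, among them the sorting nexins SNX2 (-0.92) and SNX5 (-0.81) and the fission GTPase DNM2 (-0.74).

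Actin-binding and myosin genes rose in 44 of 94 and fell in 18 (median 0.10). TPM4, a tropomyosin, had 282 and 297 CPM under siE1 and 618 and 579 CPM under siC (-1.05), and was at 0.27 under siE2 and -0.03 under siE3. RDX, the membrane linker radixin, rose by 1.02. Kinesins rose in 12 of 39 and fell in 13, and KIF3A, the partner of KIF3B, rose by 0.92. Neuronal tubulin TUBB3 (0.77) and the microtubule-associated MAP1B (0.94) were higher.

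Deubiquitinases rose in 18 of 63 and fell in 22. USP12 had 133 and 136 CPM under siE1 and 52.7 and 53.7 CPM under siC (1.34), USP5, which takes apart free ubiquitin chains, had 102 and 103 CPM under siE1 and 201 and 202 CPM under siC (-0.97), and STAMBP, which acts on endosomes, had 52.8 and 50.4 CPM under siE1 and 115 and 113 CPM under siC (-1.14). Cullin, F-box and BTB adaptors rose in 19 of 98 and fell in 30, with KLHL12, an adaptor for COPII coat assembly, at -1.5. Cytosolic chaperones rose in 9 of 53 and fell in 15. HSPB1, the small heat shock protein, had 138 and 138 CPM under siE1 and 62.9 and 58.7 CPM under siC (1.18), while the chaperonin subunits CCT2 (-0.63) and CCT3 (-0.60) and the prefoldin subunit VBP1 (-1.21) fell. Phosphoinositide genes rose in 24 of 69 and fell in 16. Of 29 nuclear receptor genes 4 rose and 6 fell, or 2 rose without siC replicate 1 or siE1 replicate 1 and 0 without siC replicate 2, with the thyroid hormone receptor THRA at -1.11, the retinoic acid receptor RARG at -0.84 and the glucocorticoid receptor NR3C1 at -0.32.

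**Figure D5:**
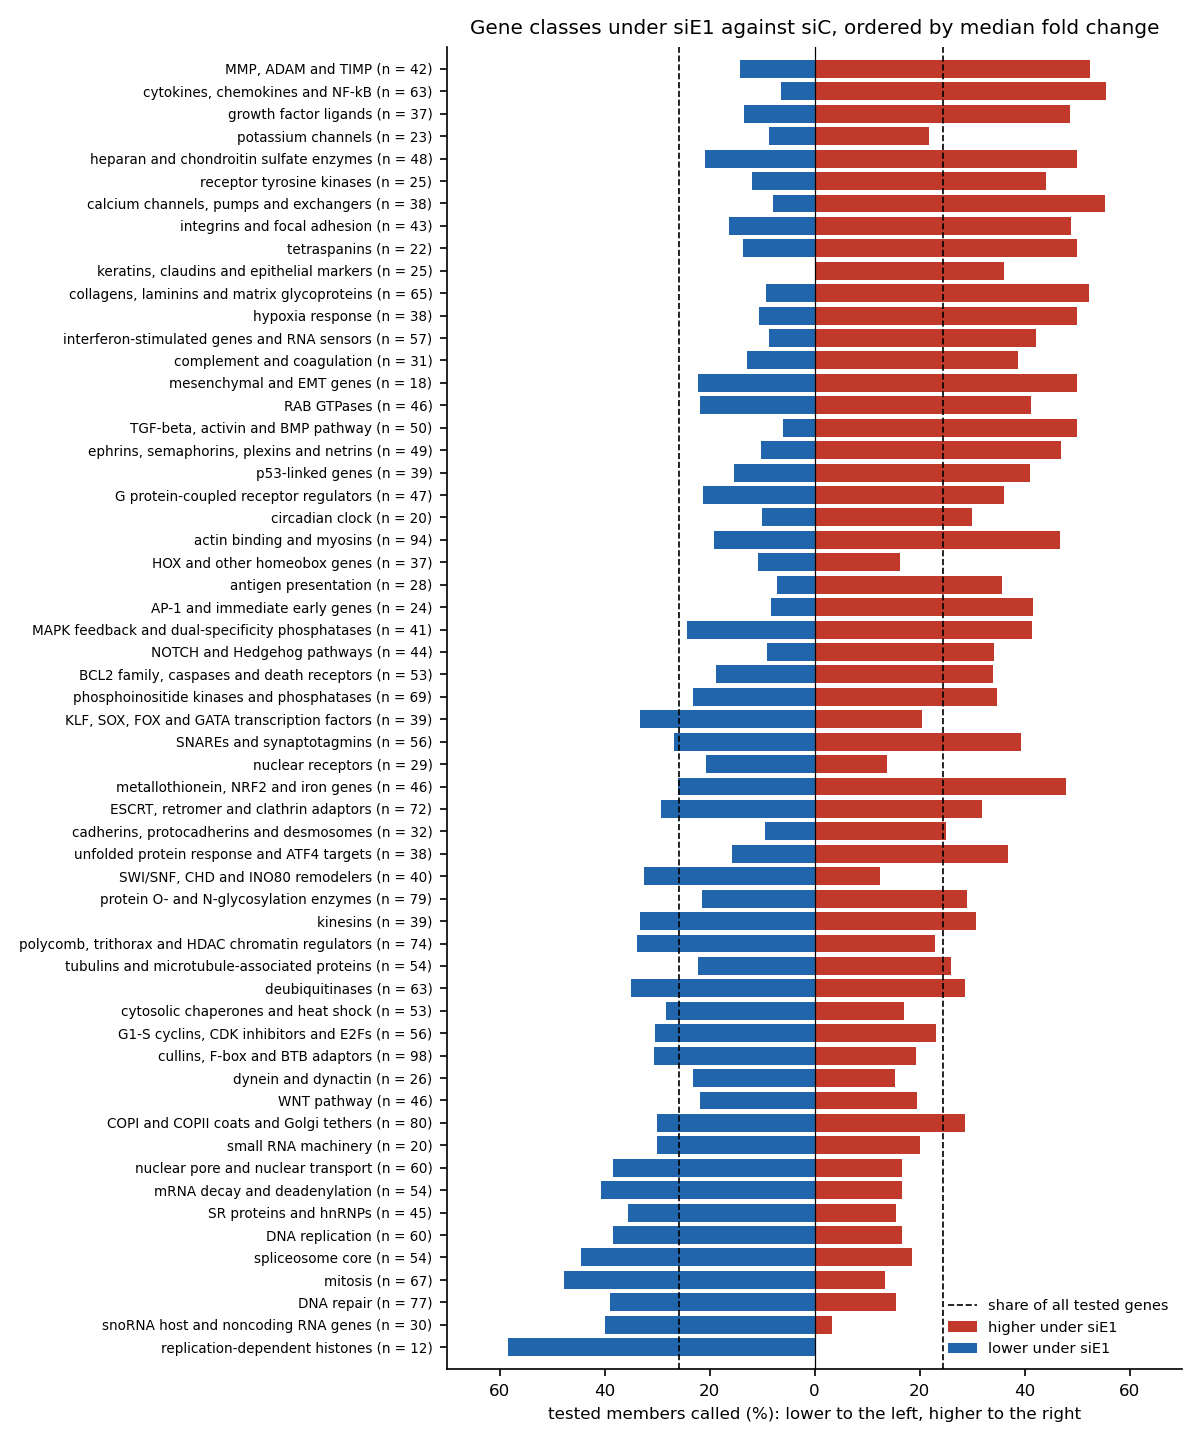
Bars give the percentage of tested members of each gene class called higher (red, right) or lower (blue, left) under siE1 than under siC, for classes with at least 12 tested members (a class not reported is left out), ordered by median log2 fold change. Dashed lines mark the shares of all tested genes, 24.5% higher and 25.8% lower. Protease, cytokine and growth factor classes lie at the top, and histone, noncoding RNA, DNA repair and mitosis classes at the bottom.

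Markers of other cell types were read as a check on the samples. Of 16 blood cell markers 8 had no count in any library, CD3E and HBB among them, PTPRC had none in the siE1 and siC libraries, and 2 markers were tested. Their summed level was 1.90 and 2.05 CPM under siE1 and 0.822 and 0.814 CPM under siC, and CD14 (2.05) and CSF1R (1.64) were called higher at levels below 1 CPM. With a stricter filter on low counts neither was tested, and CSF1R was not called without siC replicate 1, siC replicate 2 or siE1 replicate 2 (edgeR adjusted p = 0.058, 0.11 and 0.17). Of 12 fibroblast markers 3 had no count in any library, DCN, LUM and PDPN, COL1A2 had none in the siE1 and siC libraries, and 4 were tested. The sum of these markers was 10.7 and 12.6 CPM under siE1 and 10.04 and 8.53 CPM under siC, and PDGFRB, at 4.20 and 4.36 CPM under siE1 and 0.776 and 0.900 CPM under siC (2.34), was the member called. COL1A1, at -0.37, was not called (edgeR adjusted p = 0.071), but it was called lower with no filter on low counts (edgeR adjusted p = 0.047). It was at -0.52 without siC replicate 2 and at -0.54 without siE1 replicate 2. Of 12 endothelial markers 6 were tested, and 3 rose and 1 fell. Their summed level was 400.4 and 416 CPM under siE1 and 364 and 363 CPM under siC, most of it from ROBO4, TIE1 and ESAM (0.57), while the defining markers PECAM1, CDH5, VWF and TEK had at most 21 counts in any siE1 or siC library. The part of such cells in the results above was not tested.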

How the data were processed

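Human MDA-MB-231 cells were transfected with siE1, siE2, siE3 or the control siRNA siC, 2 libraries each. Per the submitters' processing notes, TopHat 1.3.3, HTSeq, DESeq and the human build hg19 were used. Strand setting and gene annotation are not given in the sources, so overlapping genes and sense and antisense partners may share reads, and genes with close copies are uncertain. Per the file headers, the authors deposited raw read counts per gene symbol, with a fold (a linear ratio over the control) and an adjusted p-value per siRNA. These deposited counts were whole and summed to different totals in each library, and the authors' deposited fold and adjusted p-value columns were used for the comparison of calls.

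Sample titles gave the groups. The table lists 23368 symbols, 5492 of them without a count anywhere. filterByExpr kept 13395 genes, and the rest held 0.0271% to 0.0355% of the counts. The quasi-likelihood test of edgeR 4.0.16, with TMM scaling (factors of 0.980 to 1.02), used a single model of all 8 libraries and a mean for each siRNA. It had 4 residual degrees of freedom and a common dispersion of 0.00166 (4.08% variation between libraries of a group, beyond counting noise). P-values were adjusted by Benjamini-Hochberg over all tested genes of a contrast, with a threshold of 0.05. The SE of a log2 fold change is its size over the square root of F. On simulated counts for siE1 against siC (13104 genes) the test recovered 44%, 88%, 100% and 100% of genes changed by 0.25, 0.5, 1 and 2 on the log2 scale, and 4.60% of its calls were false. Only a small set of genes was changed there, all of them well counted, and the spread was that estimated by the fit. In the data 50.3% of genes were called, many at low counts, so these rates need not hold for them.

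The 64 gene lists (3387 entries) and the comparisons were chosen with earlier results of these data known. Lists are described by counts and medians, with no set test. Named by rule were the 14 highest and 14 lowest called genes of at least 5 CPM with separate libraries, the 10 genes set highest and the 10 set lowest by siE1 against siC, siE2 and siE3 alike (ranked by the smaller direct difference), the 6 largest gains and 6 largest losses of CPM, and up to 4 called members with the smallest p, plus the most abundant member, of each list described. A few genes that this rule picks, and a gene class, are not reported here.

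3' UTRs came from GENCODE v29 on GRCh38, matched by symbol or synonym for 12270 tested genes (91.6%), and 1125 were not searched. The words were searched after the fold changes were seen. R 4.3.3, limma 3.58.1, DESeq2 1.42.0, Python 3.11.15, numpy 2.4.6, pandas 2.3.3 and matplotlib 3.10.9 were used. The alternatives changed the scaling (DESeq2 size factors or library size alone), the filter (none or stricter), the tool (the DESeq2 Wald test or limma-voom), the groups fitted, the block (replicate number), the fold (a limit of 1.5) and the libraries (each left out in turn).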

Additional observations from a re-analysis of the deposited data

Results flagged for a closer look

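Of all tested genes, 245 (1.83%) went one way under siE1 over siC and the other way under both siE2 and siE3, each change and both direct differences passing the edgeR test. Of these, 87 were higher and 158 lower under siE1. Among the genes picked by the naming rule, 3 were higher under siE1. For CDKN1A, the cell cycle inhibitor p21, the smaller of the direct differences (siE1 minus siE2 or siE3, on the log2 scale) was 1.63, for CTXN1 it was 1.43, and for BTG2, an antiproliferative gene, 1.41. The rise of BTG2 over siC was not called by DESeq2 (adjusted p = 0.056), without siC replicate 2 or without siE1 replicate 2 (edgeR adjusted p = 0.081 in both).

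Among those lower under siE1 and higher under the others, the smaller absolute direct difference was 1.65 for PAQR8, a membrane progestin receptor, and 1.54 for KDELR3, a retrieval receptor of the secretory pathway. It was 1.11 for CD276, an immune checkpoint ligand, 1.1 for GBP3, an interferon-inducible GTPase, and 0.33 for CANX, the chaperone calnexin. Both siE1 libraries of each of the genes named here lay beyond both siC libraries, as in 74.7% of all tested genes. The choice of called genes nearly fixed this, since 6741 of the 6744 called genes had such libraries. The comparisons over siC share the siC libraries, which are not in the means that the direct differences compare.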

How the results depend on the processing

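The count of genes called for siE1 against siC was 6744, with 3287 higher. It was 6744 with DESeq2 size factors, 6724 with library size alone, 6879 without a filter, 6560 with a stricter filter, 5559 with the DESeq2 Wald test, 6731 with limma-voom, 6888 in a fit of only the 2 groups, and 5295 to 6984 when each of the 8 libraries was left out in turn. With a fold limit of 1.5 it was 1974, and the counts for siE1 against siE2 and siE3 were 2556 and 1827. Leaving out a library gave 6354 to 7822 genes for siE1 against siE2 and 5056 to 6466 against siE3. ESRRA lay between -2.60 and -2.64 under all alternatives and stayed past the threshold. No named gene changed sign with a call, and 95 of 326 named genes lost or gained a call under at least 1 alternative, most of them (85) under the fold limit. The cause was not tested. Genes of low count are limited by depth, as their larger SE shows, and no list or word was tested against chance.

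The replicate numbers did not pair the libraries. Deviations of same-numbered libraries from their group means correlated between -0.398 and 0.374 over 10441 genes, with -0.398 for siE1 and siC. With the replicate number as a block, 6334 genes were called for siE1 against siC, 7300 against siE2 and 6096 against siE3, and ESRRA was at -2.62. The correlation was 0.374 for siE1 and siE2 and 0.262 for siC and siE3, and it was negative for every other pair of groups. A block with the numbers of siC and siE3 reversed was therefore also fitted, chosen after seeing the data. With it 7740 genes were called for siE1 against siC.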

Other observations

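Genes were also grouped by the letters of their symbols up to the first digit, without reference to any list, into 87 families of at least 15 tested members. The family with the highest median under siE1 was IL, interleukins, their receptors and other genes of that prefix, with a median of 0.47, and 20 of its 36 members rose in edgeR. The prefix S, made of the S100 calcium-binding proteins, S100PBP and receptors of sphingosine-1-phosphate, followed with a median of 0.44, and 12 of 15 rose. S100A6 stood at 583 and 581 CPM under siE1, against 416 and 417 CPM under siC (0.48), and S100A3 at 7.77 and 6.33 CPM under siE1, against 1.92 and 1.59 CPM under siC (2.00). The receptor family GPR rose in 18 of 45 members and fell in 2, with GPR17 at 1.58 and GPR56 at 0.69. Over all tested genes 24.5% rose and 25.8% fell.

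The families with the lowest medians were SNORD, DCAF, METTL, MRPS and COX. Of the 44 SNORD members, genes of small nucleolar RNAs, 2 were called lower and 0 higher. These 2, SNORD26 and SNORD29, had means of 0.40 and 1.51 CPM under siE1 and 0.90 and 2.40 CPM under siC. The SNORD median was -0.30 under siE1, -0.66 under siE2 and -0.73 under siE3. Methyltransferase-like genes (METTL) fell in 15 of 27 and rose in 1, with METTL18 at -0.98. DCAF11, a substrate receptor of CUL4 ubiquitin ligases, had 24.4 and 23.5 CPM under siE1, against 49.7 and 52.2 CPM under siC (-1.09), while DCAF6 of the same family rose by 0.52. COX6A1, a subunit of cytochrome c oxidase, had 30.7 and 30.5 CPM under siE1, against 55.7 and 58.3 CPM under siC (-0.90), and was at -0.10 under siE2 and 0.05 under siE3. MRPS22, a mitochondrial ribosomal protein gene, was at -0.64 with siE1, 0.15 with siE2 and 0.26 with siE3. MRPS30 of the same family was at -0.44 with siE1, -0.61 with siE2 and -0.27 with siE3. The median of the tested MRPS genes was -0.20 under siE1, -0.34 under siE2 and -0.05 under siE3, and that of the COX genes was -0.20, -0.24 and -0.07.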
